A study of Oryza sativa Japonica Group with 12 samples.

Results

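WRKY and NAC proteins are plant-specific transcription factors. WRKY proteins bind W-box elements in promoters and are best known from defence, hormone signalling and senescence, where family members act as activators or as repressors of the same pathways. NAC proteins share a DNA-binding domain at the N-terminal end and take part in stress responses, senescence, secondary wall formation and the development of meristems and lateral organs. In the stem base of rice, crown root (CR) primordia arise inside the stem next to the peripheral vascular tissue and grow out through the cortex.

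The genes described here are those whose symbol or synonym in the RefSeq gene table (assembly ASM3414082v1) is WRKY, NAC or SNAC followed by a number, with or without the prefix Os. There were 16 of them among the 24160 genes measured, 6 WRKY genes and 10 NAC genes, and each was read by 1 probe set that carries no other gene. Rice has many more genes of both families, and those listed in that table without such a name are not covered. *OsWRKY108*, a WRKY gene that the study names, was not matched to a gene of the table and is not analysed here, so the statements below do not extend to it. The 6 WRKY genes were *OsWRKY24* (LOC4327518), *OsWRKY51* (LOC4335388), *OsWRKY62* (LOC4347070, also XB10), *OsWRKY71* (LOC4328512), *OsWRKY76* (LOC4347069) and *WRKY9* (LOC4343736). The 10 NAC genes were *ONAC010* (LOC4343630), *ONAC045* (LOC4349650), *ONAC300* (LOC4351370), *OsNAC2* (LOC4336052, also OsTIL1), *OsNAC3* (LOC4342753), *OsNAC4* (LOC4327485), *OsNAC5* (LOC4349963), *OsNAC6* (LOC4325006, also SNAC2), *OsNAC7* (LOC4341201) and *OsNAC8* (LOC4325120, also OsNTL3). *OsWRKY62* and *OsWRKY76* are direct neighbours, with 0 genes between them, while the other neighbouring pairs of members on a chromosome have 83 or more genes between them.

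RNA was extracted from laser-microdissected tissue of untreated Taichung 65 plants, a *japonica* rice cultivar, 8 days after sowing. The 4 groups, each with 3 arrays, were stem cortex and CR primordia at an early, intermediate and late stage, which correspond to 3 successive rings of primordia in the same stem bases. Each replicate pooled 2 stem bases and gave all 4 tissues, so that cortex and primordia of a replicate share their plants and sections. The log2 signals are given as the authors normalized and deposited them, and on this scale 1 unit is a doubling. Levels of different genes come from different probes and are not compared with each other. A gene is said to have risen or fallen against cortex where limma's Benjamini-Hochberg adjusted p over all 24160 genes was under 0.05 and the fold change was at least 1.5, that is a log2 change of 0.58. As in all dissected tissue, fewer cells that express a gene and less RNA per cell cannot be told apart.

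The tissue labels were checked with marker genes. Of 3 green tissue markers, *CAB1R* and *CAB2R*, which encode chlorophyll a/b binding proteins, fell in all 3 stages, and the mean of the 3 markers was 3.94 to 5.97 on the cortex arrays against 2.31 to 2.66 on the primordium arrays. For green tissue 5 symbols were searched and 3 genes matched. For primordia 11 symbols were searched and 6 genes matched, while *PLT1*, *PLT3*, *PLT5* and *PLT6* had no match. The 6 primordium markers were *CYCB1-1*, *OsWOX9*, *OsPCNA*, *CYCB2-2*, *OsSHR1* and *OsSCR1*. Their mean was 3.61 to 3.81 in cortex and 4.52 to 4.84 in early primordia. In late primordia it was 3.48 to 4.18, which overlaps with cortex. Of the 6, 1 rose in early primordia (*OsSCR1*), and 0 rose or fell in the other stages. Of these markers, *OsSCR1* and *OsSHR1* were singled out by the study on the same arrays and are not independent of them. Cortex replicate 2 had the highest mean of the green markers (5.97) and of 3 secondary wall cellulose synthase genes of vascular tissue (3.31, against 2.59 to 2.96 on the other 11 arrays). The 98th percentile of all values was 7.48 and 7.54 on cortex replicates 2 and 3, 8.46 on cortex replicate 1 and 8.66 to 9.06 on the primordium arrays.

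None of the 16 genes rose or fell. At the adjusted p, 0 of 6 WRKY and 0 of 10 NAC genes passed in early primordia against cortex, where 2.65% of all genes did. The counts were likewise 0 of 6 and 0 of 10 in intermediate primordia (5.72% of all genes) and in late primordia (3.25%). The members with an unadjusted p under 0.05 were *OsNAC8* in early primordia (21.1% of all genes passed), *OsWRKY71*, *WRKY9*, *OsNAC2* and *OsNAC5* in intermediate primordia (28.3%), and none in late primordia (24.4%). At an unadjusted p under 0.01 with a 1.5-fold change, the threshold used by the study, 0 members passed in early primordia (7.02% of all genes), 1 in intermediate primordia, *OsWRKY71* (9.79%), and 0 in late primordia (7.82%). These shares of members are near or below those of all genes. Each of the 3 comparisons uses the same 3 cortex arrays.

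Above background was judged by a stand-in, a value over the array's median of all probe sets on all 3 arrays of at least 1 group. By it, 1 of 6 WRKY genes (*WRKY9*) and 4 of 10 NAC genes (*OsNAC5*, *OsNAC6*, *OsNAC7* and *OsNAC8*) were above background, against 52.0% of all genes. With the 75th percentile in place of the median, the counts were 0 of 6 WRKY genes and the same 4 of 10 NAC genes, against 23.8% of all genes. Below the median of their array on all 12 arrays were 4 WRKY genes, *OsWRKY24*, *OsWRKY51*, *OsWRKY62* and *OsWRKY76*, and 3 NAC genes, *ONAC045*, *OsNAC2* and *OsNAC3*. The array medians lay between 2.82 and 2.97, so a value between 2 and 2.8 is in the dim part of the array, where the transcript and unspecific signal of a probe set cannot be told apart.

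Among the WRKY genes, *OsWRKY71* encodes a repressor of gibberellin signalling in aleurone cells that also takes part in defence. Its log2 signal was 2.98, 3.51 and 2.68 in cortex, 2.82, 2.89 and 2.60 in early, 2.29, 2.40 and 2.49 in intermediate and 2.55, 2.84 and 2.65 in late primordia. All 3 intermediate arrays lay below all 3 cortex arrays, whereas the early and the late arrays overlapped with cortex. The mean ± SD was 3.06 ± 0.42 in cortex and 2.39 ± 0.10 in intermediate primordia (n = 3 each). The log2 change of *OsWRKY71* against cortex was -0.29 (adjusted p = 0.419) in early, -0.66 (adjusted p = 0.0619) in intermediate and -0.38 (adjusted p = 0.248) in late primordia, each with a standard error of 0.19. The intermediate change corresponds to 0.632 of the cortex signal, with a 95% interval of the log2 change from -1.08 to -0.24. *OsWRKY71* was not above the background stand-in in any group. Its intermediate values lie in the dim part of the array, where transcript and unspecific signal cannot be told apart. Cortex replicate 2 had the highest value of *OsWRKY71* and also the highest green and vascular marker means, and the part of these tissues in the difference was not tested. Without that array the intermediate change was -0.43 (adjusted p = 0.159), and without cortex replicate 3 it was -0.85 (adjusted p = 0.0482), which passes the threshold.

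*WRKY9* was the single WRKY gene with a mean above cortex in every stage. It measured 3.17, 2.87 and 3.08 in cortex, 3.15, 3.33 and 3.55 in early, 3.61, 3.46 and 3.45 in intermediate and 3.32, 3.42 and 3.11 in late primordia. The intermediate arrays all lay above cortex and the others overlapped with it. The log2 changes, given in this order of the stages here and for the genes that follow, were 0.30, 0.46 and 0.24 (standard error 0.14, adjusted p = 0.251, 0.0677 and 0.306). The intermediate change, a fold of 1.38 with a 95% interval from 0.16 to 0.77 on the log2 scale, was under 1.5-fold. Without cortex replicate 1 its adjusted p was 0.0431 at a log2 change of 0.53, still under that fold. That fit called 3633 of the 24160 genes in intermediate primordia, against 1382 with all arrays.

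*OsWRKY62* and *OsWRKY76*, the neighbouring pair, both encode negative regulators of immunity. *OsWRKY62* ranged from 2.34 to 2.74 in cortex and from 2.14 to 2.64 in primordia. The 3 stages differed from cortex by -0.01, -0.24 and 0.01 on average (SE 0.16, adjusted p = 0.985, 0.328 and 0.979). *OsWRKY76* measured 2.38, 2.64 and 2.94 in cortex and 2.28 to 2.54 on the 9 primordium arrays, so the groups overlapped in every stage through cortex replicate 1. Its differences from cortex, -0.27, -0.29 and -0.24 (SE 0.14, adjusted p = 0.323, 0.216 and 0.321) did not pass. Both genes were dim, and no difference of theirs from cortex passed.

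*OsWRKY24* and *OsWRKY51* encode repressors in the gibberellin and abscisic acid responses of aleurone cells, as *OsWRKY71* does. *OsWRKY24* spanned only 2.40 to 2.71 over the 12 arrays and *OsWRKY51* 2.14 to 2.60. Their log2 changes from cortex lay between -0.18 and -0.05 in the 3 stages. The 95% intervals of both genes stayed within a 1.5-fold change in each stage, and their SDs within groups, 0.120 and 0.134, were under the median of all genes (0.206).

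**Figure D1:**
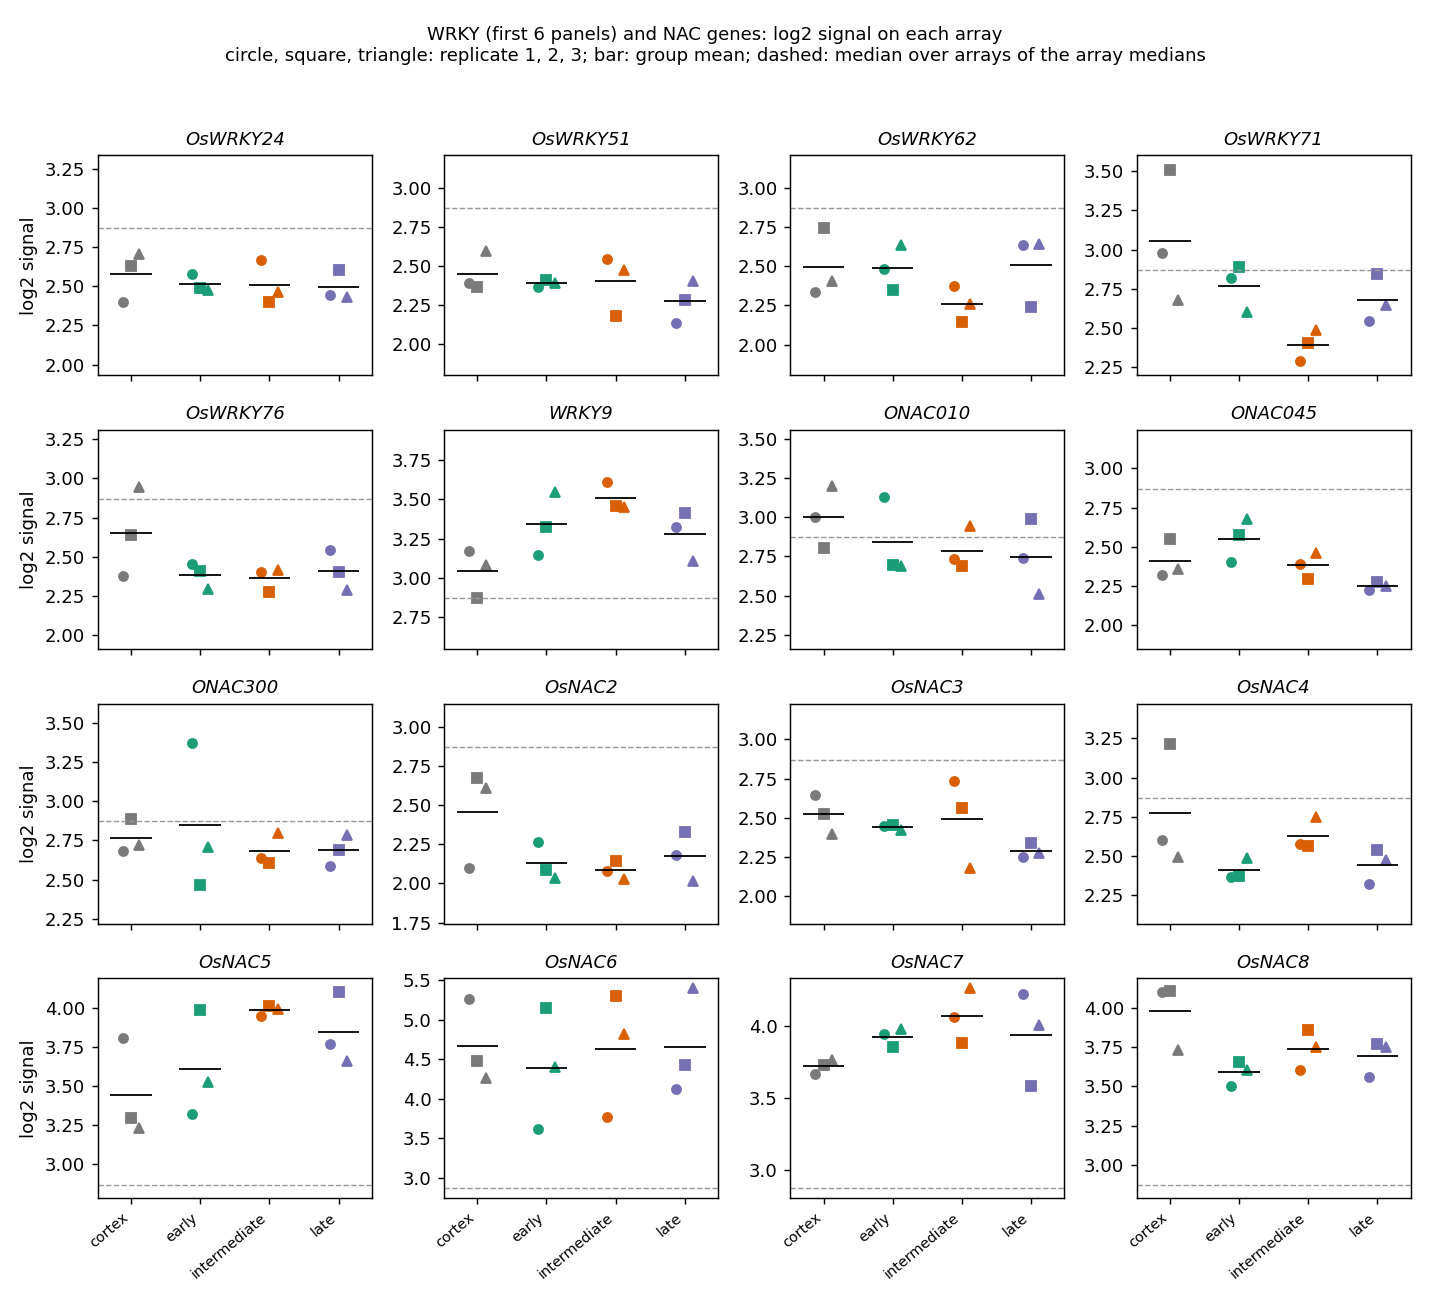
Log2 signal of each WRKY and NAC gene by group, with 1 point per array and a bar at the mean of the 3 arrays (vertical axes differ between panels). The 3 intermediate arrays of *OsWRKY71* lie below its cortex arrays and those of *WRKY9* and *OsNAC5* above, while *OsNAC6* spreads over more than 1 log2 unit within each group.

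Among the NAC genes tied to stress, *OsNAC6*, a factor of drought, salt and cold responses, varied most between replicates. Its log2 signal was 5.27, 4.48 and 4.26 in cortex, 3.61, 5.15 and 4.41 in early, 3.77, 5.30 and 4.82 in intermediate and 4.12, 4.44 and 5.40 in late primordia. All 4 groups overlapped. The SD within groups was 0.694, which is at percentile 98.7 of all genes (median 0.206). Its mean differences from cortex were -0.28, -0.04 and -0.02 (SE 0.50, adjusted p = 0.781, 0.968 and 0.984). The 95% interval in early primordia ran from -1.39 to 0.83 and so held changes of more than 1.5-fold in both directions.

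*OsNAC5*, a related factor of drought and salt responses, measured 3.81, 3.29 and 3.23 in cortex, 3.32, 3.99 and 3.53 in early, 3.95, 4.01 and 3.99 in intermediate and 3.77, 4.10 and 3.66 in late primordia. The intermediate arrays were all above cortex and close together, with a mean ± SD of 3.98 ± 0.03 (n = 3) against 3.45 ± 0.32 (n = 3). Against cortex *OsNAC5* differed by 0.17, 0.54 and 0.40 (SE 0.20, adjusted p = 0.673, 0.117 and 0.251). The intermediate difference was a fold of 1.45. Of the cortex arrays, replicate 1 had the highest value. Without that array the intermediate difference was 0.72 (adjusted p = 0.0341), past the threshold. That fit called 3633 of the 24160 genes in intermediate primordia, against 1382 with all arrays. Against cortex replicate 1 alone the early change of *OsNAC5* turned from 0.17 to -0.20.

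*OsNAC3* and *OsNAC4*, of which the latter promotes hypersensitive cell death, were dim. *OsNAC4* measured 2.60, 3.22 and 2.50 in cortex and 2.32 to 2.75 on the 9 primordium arrays, the highest value again being that of cortex replicate 2, and the part of green or vascular tissue in it was not tested. The 3 early arrays lay just below all 3 cortex arrays, but the differences of -0.36, -0.14 and -0.33 (SE 0.17, adjusted p = 0.262, 0.607 and 0.262) did not pass. *OsNAC3* ranged from 2.40 to 2.65 in cortex and from 2.25 to 2.34 in late primordia, without overlap, with a late change of -0.23 (standard error 0.14, adjusted p = 0.323). *ONAC045*, whose overexpression gives tolerance to drought and salt, ranged from 2.32 to 2.55 in cortex and from 2.22 to 2.28 in late primordia, also without overlap, with a late change of -0.16 (standard error 0.11, adjusted p = 0.404). These are small differences between dim values.

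*OsNAC8*, which encodes a membrane-tethered factor of heat and endoplasmic reticulum stress, had the lowest unadjusted p of the early comparison among the members. It measured 4.10, 4.11 and 3.73 in cortex, 3.50, 3.66 and 3.61 in early, 3.61, 3.86 and 3.75 in intermediate and 3.56, 3.77 and 3.75 in late primordia. The early arrays lay below all cortex arrays, and the intermediate and late arrays overlapped with cortex replicate 3. Its mean differences from cortex were -0.39, -0.24 and -0.28 (SE 0.13, adjusted p = 0.132, 0.254 and 0.217), and the 95% interval of the early change was -0.68 to -0.10.

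Of the NAC genes tied to development, *OsNAC2* acts in tillering, senescence and root growth, and *OsNAC7* gives its name to the subgroup that in Arabidopsis holds the regulators of vessel formation. *OsNAC2* measured 2.10, 2.67 and 2.61 in cortex and 2.02 to 2.33 on the primordium arrays. Cortex replicates 2 and 3 lay above all 9 primordium arrays and cortex replicate 1 among them. The log2 changes of *OsNAC2* were -0.33, -0.37 and -0.28 (SE 0.16, adjusted p = 0.263, 0.152 and 0.288). Without cortex replicate 1 they were -0.51, -0.56 and -0.46 (adjusted p = 0.0342, 0.0189 and 0.0417), still under 1.5-fold. That fit called 2336, 3633 and 2971 of the 24160 genes, against 641, 1382 and 785 with all arrays. Against cortex replicate 1 alone the sign of *OsNAC2* turned in the early and late stage, to 0.03 and 0.08. *OsNAC7* measured 3.67, 3.73 and 3.76 in cortex, 3.95, 3.85 and 3.98 in early, 4.07, 3.88 and 4.27 in intermediate and 4.23, 3.58 and 4.01 in late primordia. Its early and intermediate arrays were all above cortex, and late replicate 2 was the lowest of the 12. The differences of 0.21, 0.35 and 0.22 from cortex (SE 0.16, adjusted p = 0.494, 0.184 and 0.424) did not pass.

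*ONAC300* and *ONAC010* completed the family. *ONAC300*, a gene expressed in phloem, had 1 high early array (3.37, against 2.47 and 2.71 on the others) and ranged from 2.58 to 2.88 on the remaining groups. Its log2 changes were 0.08, -0.08 and -0.08 (standard error 0.20), with adjusted p from 0.799 to 0.837. *ONAC010* ranged from 2.81 to 3.20 in cortex and from 2.51 to 3.13 in primordia, with log2 changes of -0.17, -0.22 and -0.26 (standard error 0.17) and adjusted p from 0.376 to 0.613. Neither gene separated any stage from cortex.

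Across both families the differences were small. The median log2 change was -0.06 for the WRKY genes, -0.12 for the NAC genes and -0.03 for all genes in early primordia. It was -0.15, -0.06 and -0.03 in intermediate and -0.13, -0.20 and -0.02 in late primordia. The whole 95% interval stayed within a 1.5-fold change for 3 of 6 WRKY and 5 of 10 NAC genes in early primordia, where 50.1% of all genes did, for 3 and 5 in intermediate primordia (45.2%) and for 5 and 5 in late primordia (47.8%). For the other members a change of 1.5-fold was not excluded by these arrays. The largest of the 4 group SDs was that of cortex for 3 of 6 WRKY genes (*OsWRKY24*, *OsWRKY71* and *OsWRKY76*) and 3 of 10 NAC genes (*OsNAC2*, *OsNAC4* and *OsNAC8*), against 42.8% of all genes.

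The members were also sorted by overlap of the single arrays. A gene was called cortex biased if all 3 cortex arrays lay above all 9 primordium arrays, and primordium biased if they all lay below. By this rule 0 members were cortex biased (4.98% of all genes) and 0 were primordium biased (5.55%). Stage by stage, all 3 arrays were below all cortex arrays for *OsNAC4* and *OsNAC8* in the early (11.6% of all genes), *OsWRKY71* in the intermediate (15.4%) and *ONAC045* and *OsNAC3* in the late stage (14.2%). They were above all cortex arrays for *OsNAC7* in the early (12.4%), *WRKY9*, *OsNAC5* and *OsNAC7* in the intermediate (16.1%) and no member in the late stage (13.2%). With 16 members these counts of 0 to 3 per stage are close to, or below, the shares of all genes.

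No member was called stage biased. Since this test called no gene at all, its outcome says nothing particular about the members. Between late and early primordia, intermediate and early primordia, and late and intermediate primordia, 0 of 6 WRKY and 0 of 10 NAC genes passed the adjusted p, as did 0% of all genes in each pair of stages. At an unadjusted p under 0.05 only *ONAC045* passed, between late and early (6.20% of all genes), and 0 members did between intermediate and early (3.14%) or late and intermediate (2.48%). *ONAC045* measured 2.40, 2.58 and 2.68 in early, 2.39, 2.30 and 2.46 in intermediate and 2.22, 2.28 and 2.25 in late primordia. Its late arrays were all below its early arrays, with a mean log2 difference of -0.30 (SE 0.11, adjusted p = 0.716). It had the smallest SD within groups of all members, 0.103, so this is a small difference measured tightly in a dim gene.

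Genes that act with these factors were mostly not called either. In the early, intermediate and late stage 2.65%, 5.72% and 3.25% of all genes rose or fell. Of 17 genes of the MAP kinase cascade, 0 rose and 0 fell in each stage. Most of them encode MAP kinases, a class of enzymes that includes kinases of WRKY proteins, while 2, both listed as *MEK1*, encode MAP kinase kinases. At an unadjusted p under 0.05, which 21.1%, 28.3% and 24.4% of all genes passed against cortex, there were 0 of the 17 at the early stage, 5 at the intermediate stage (4 higher, 1 lower) and 2 at the late stage (2 higher).

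Of 18 JAZ and TIFY genes, which include the repressors of jasmonate signalling, 1 passed in intermediate primordia, where 5.72% of all genes did. This count of 1 in 18 is near that share. In early and late primordia 0 passed (2.65% and 3.25% of all genes). *JAZ12* (LOC4348533) fell in intermediate primordia, with a log2 change of -0.84 (SE 0.19, adjusted p = 0.0311) from 4.01, 3.98 and 4.51 in cortex to 3.02, 3.52 and 3.44. Some larger differences in the opposite direction, named here after their values were seen, did not pass. *JAZ1* (LOC4337240) had log2 changes of 1.15, 0.79 and 0.46 (SE 0.27, adjusted p = 0.0518, 0.0929 and 0.317), and *OsTIFY2b* (LOC4341953) of 1.19, 1.09 and 1.21 (SE 0.37, adjusted p = 0.109, 0.0938 and 0.0904). At the unadjusted p just given, the list had 2 higher and 3 lower genes at the early stage, 2 and 3 at the intermediate and 1 and 3 at the late stage, which is 5, 5 and 4 of 18 and thus near the share of all genes.

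Of 7 NPR1-like genes, named after the receptor of salicylic acid signalling, 0 rose or fell in any stage. By the unadjusted p the list had 1 lower gene at the early stage and 1 higher and 3 lower at the intermediate stage. At the late stage it had 1 higher and 1 lower. That is 1, 4 and 2 of 7, against 21.1%, 28.3% and 24.4% of all genes. The intermediate share was above that of all genes, in a list of only 7, and the excess was not tested. The pathogenesis-related gene *PBZ1* had log2 changes of 0.005, -0.03 and -0.04, and *PAL06*, of the phenylalanine ammonia-lyase family, of -0.07, -0.10 and -0.10, none of which passed at either p.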

How the data were processed

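RNA of 12 dissected samples was hybridized to Affymetrix rice gene arrays, 1 colour each. The authors deposited log2 signals for 36643 probe sets, already background-corrected, normalized and summarized over all arrays. The article names Robust Multi-array Average, and the submitters' processing notes name GCRMA and the Affymetrix Expression Console. It is not known which was used for the deposited values. Scanner intensities were not analysed here. Each group has only 3 arrays, which limits the precision.

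The array's annotation gives 24161 probe sets 1 gene, 90 several and 12392 none. Probe sets with several genes were dropped, and the probe set with the highest mean stood for a gene. A group means model over all 12 arrays was fitted with limma 3.58.1 in R 4.3.3 (lmFit, contrasts, eBayes), the p-values being adjusted over 24160 genes. The replicate numbers mark the same pair of stem bases in all 4 tissues, according to the extraction notes. Deviations from the group means had a mean r of 0.0510 over 18 same-numbered pairs of arrays, from -0.31 to 0.35, and 7 pairs were above 0.1. The r is taken across genes, which are not independent. Since the deviations of a group sum to 0, the mean r for different numbers (-0.0258) largely follows from the first and is no separate comparison. The study names no block, so the block was an alternative, beside other scalings, a filter on dim probe sets, an intensity trend, array weights and arrays left out.

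Members were to be named if called against cortex, if past an unadjusted p of 0.01 with 1.5-fold between stages, or as the 5 brightest of a family, and role lists were added. Since so few are in the list, all 16 are described. The members and lists were chosen with earlier results of these data known. No genome or protein table was used, so neither sequences nor coordinates are given.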

Additional observations from a re-analysis of the deposited data

How the results depend on the processing

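Differences under 1.5-fold could not be called under the rule used. With 3 arrays per group, larger ones did not always pass either. An example is *OsTIFY2b* in early primordia, with a log2 change of 1.19 (adjusted p = 0.109). Some alternatives could call hardly any gene of the 24160 and say nothing about stability. They called 2 early, 2 intermediate and 1 late gene with only the 6 arrays compared, 0, 0 and 0 without the arrays of replicate 2, and 21, 17 and 10 without those of replicate 3, against 641, 1382 and 785. The fit without cortex replicate 1 instead called more genes, 2336 early, 3633 intermediate and 2971 late. Among all alternatives run, the member counts departed from 0 as follows. In intermediate primordia 1 WRKY gene was lower without cortex replicate 3 (range 0 to 1 over the arrays left out) and 1 at an unadjusted p under 0.01, *OsWRKY71* in both, and 1 NAC gene, *OsNAC5*, was higher without cortex replicate 1 (range 0 to 1). The number of WRKY genes above background was 0 at the 75th percentile. The adjusted p of *OsWRKY71* in intermediate primordia ranged from 0.0482 to 0.376. The upper end came from the fit without the arrays of replicate 2, which called no gene and says nothing about stability.

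With the replicate block the change of *OsWRKY71* in intermediate primordia was -0.66 (adjusted p = 0.0547), and the block changed no call, 24 of 24 values of the 8 members with an unadjusted p under 0.1 keeping direction and side of the threshold. The same 24 did so with median centring, quantile normalization, array weights and an intensity trend. The filter on dim probe sets left 12 of 24. Against cortex replicate 1 alone, 6 values changed sign, *OsNAC2* to 0.031 early and 0.078 late, *OsNAC4* to 0.029 intermediate, *OsNAC5* to -0.20 early and *OsWRKY76* to 0.0085 early and 0.032 late. Over the arrays left out, the change of *OsNAC4* in the intermediate stage ranged from -0.34 to 0.11 and that of *OsNAC5* in the early stage from -0.10 to 0.49. The cause was not tested.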
